A study of Mus musculus with 2 samples.

Results

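Open chromatin at 10 genes of the oocyte was described in mouse ovary by DNase-seq, in which DNase I cuts DNA that is free of nucleosomes. The genes encode zona pellucida proteins (Zp1, Zp2, Zp3), oocyte growth factors (Gdf9, Bmp15), a secreted oocyte protein (Oosp1) and maternal effect proteins (Nlrp5, Ooep, Tle6, Padi6). They are 10 of 21938 protein-coding genes in the GENCODE annotation of GRCm38, and they were chosen by name and function, with earlier results of these data known. The tissue came from 2 B6CASTF1/J females of 36 days, with a library each, called replicate 1 and replicate 2. The labels number the females differently but give both the same donor entry, which was read as the strain, so n = 2 in what follows counts libraries taken as separate animals. B6CASTF1/J is the F1 hybrid of C57BL/6J and CAST mice, no treatment is given, and there is no second group. A peak belonged to a gene when its centre lay inside the gene or when the gene's start was the nearest start of any protein-coding gene. A promoter was called open when a listed peak reached within 500 bp of any annotated start of the gene.

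The zona pellucida is the glycoprotein coat of the egg, to which sperm bind. GDF9 and BMP15 are TGF-beta family ligands that the oocyte secretes and that act on the surrounding granulosa cells. NLRP5, OOEP and TLE6 are members of the subcortical maternal complex of the egg, and PADI6 is needed for the cytoplasmic lattices and for early embryo cleavage. In the mouse, FIGLA binds an E-box (CANNTG) upstream of the zona genes, and NOBOX binds a homeodomain core (TAATTA or TAATTG) upstream of oocyte genes that include Gdf9. The oocyte is a rare cell in whole ovary. In such bulk tissue, fewer cells of a type and less open chromatin per cell cannot be told apart, and a start without a listed peak is not shown to be closed in the oocyte.

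The libraries held 109169 peaks in replicate 1 and 114462 in replicate 2, with median peak values of 0.808 and 0.648. The value is the authors' signal, and the sources used here do not say how it was scaled. On that scale, the median peak was 124 steps in replicate 1 and 99 in replicate 2. Promoters open in both libraries were counted at markers of other ovarian cells, beside 66.7% of all coding genes. They were found at 6 of 6 granulosa genes, 4 of 4 theca and steroid cell genes, 3 of 3 stromal genes and 2 of 3 endothelial genes. Some were weak: the lowest mean value was above that of 2.27% of open promoters and the highest above that of 52.9%. None of 3 macrophage markers had a promoter peak. Of 4 further oocyte markers, only Dazl, a germ cell RNA-binding protein, was open, with 9.92 in replicate 1 and 4.07 in replicate 2, while Figla, Nobox and Ddx4 had no promoter peak.

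The upstream bases of 4 genes without a promoter peak are given first. They show which matches to the E-box and the homeodomain core lay at starts with no listed signal. Binding at these matches was not tested. Sequences are from the RefSeq promoter table of GRCm38.p6, which held 7 of the 10 genes and lacked Zp1, Zp2 and Gdf9. Each runs 5′ to 3′ over the 250 bases before the RefSeq start. Capitals mark every E-box (CANNTG) and every homeodomain core (TAATTA or TAATTG) on either strand.
Zp3 upstream bases (chr5:135979855-135980104, plus strand): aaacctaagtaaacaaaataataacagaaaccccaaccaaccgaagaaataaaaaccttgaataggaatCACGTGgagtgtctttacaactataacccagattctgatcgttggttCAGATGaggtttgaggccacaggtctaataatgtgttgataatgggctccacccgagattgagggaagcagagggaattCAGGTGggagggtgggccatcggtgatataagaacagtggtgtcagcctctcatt
Bmp15 upstream bases (chrX:6320725-6320974, minus strand): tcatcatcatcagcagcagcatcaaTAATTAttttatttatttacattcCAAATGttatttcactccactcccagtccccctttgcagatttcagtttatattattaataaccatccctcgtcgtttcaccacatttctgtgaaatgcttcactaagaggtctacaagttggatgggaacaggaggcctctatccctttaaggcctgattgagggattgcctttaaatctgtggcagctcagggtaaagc
Nlrp5 upstream bases (chr7:23385639-23385888, plus strand): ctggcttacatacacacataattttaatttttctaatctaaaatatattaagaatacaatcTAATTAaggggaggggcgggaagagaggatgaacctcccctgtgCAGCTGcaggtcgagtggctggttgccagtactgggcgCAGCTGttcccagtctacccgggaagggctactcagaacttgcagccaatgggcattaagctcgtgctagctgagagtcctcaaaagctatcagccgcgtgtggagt
Padi6 upstream bases (chr4:140742644-140742893, minus strand): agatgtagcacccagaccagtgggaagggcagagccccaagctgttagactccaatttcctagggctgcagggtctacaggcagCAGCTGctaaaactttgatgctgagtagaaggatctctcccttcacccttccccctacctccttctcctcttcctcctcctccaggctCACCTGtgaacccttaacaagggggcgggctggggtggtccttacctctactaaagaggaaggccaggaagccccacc

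The open sites of 3 of these genes lay away from their starts and are given with the bases that both libraries listed as footprints in capitals. A footprint is a short stretch inside an open site with fewer cuts than its surroundings. The bases shown are those that the peaks of both libraries covered.
Zp3 intron site (chr5:135982461-135982640, plus strand): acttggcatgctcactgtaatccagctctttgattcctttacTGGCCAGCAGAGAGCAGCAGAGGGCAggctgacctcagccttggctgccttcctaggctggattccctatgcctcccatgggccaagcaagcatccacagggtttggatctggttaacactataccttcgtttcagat
Bmp15 distal site (chrX:6261601-6261740, minus strand): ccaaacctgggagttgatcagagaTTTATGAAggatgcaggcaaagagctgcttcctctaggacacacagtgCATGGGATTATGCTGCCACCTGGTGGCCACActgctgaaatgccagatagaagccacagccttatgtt
Padi6 upstream site (chr4:140744801-140744940, minus strand): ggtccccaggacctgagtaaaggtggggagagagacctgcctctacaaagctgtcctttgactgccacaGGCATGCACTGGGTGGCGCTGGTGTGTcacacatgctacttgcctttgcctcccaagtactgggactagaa

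At the Tle6 start, 2 shared footprints each held the palindrome CACGTG, an E-box known to bind proteins of the USF and MYC/MAX families.
Tle6 start, first footprint (chr10:81601059-81601093, minus strand): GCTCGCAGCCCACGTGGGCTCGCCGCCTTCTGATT
Tle6 start, second footprint (chr10:81601007-81601025, minus strand): GGGGCCCACGTGCACCGTG

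Of the 10 oocyte genes, 3 had an open promoter in both libraries: Gdf9, Tle6 and Ooep. The other 7 had none in either library. Over all protein-coding genes, 14631 of 21938, or 66.7%, had a promoter peak in both libraries. The 3 open genes differed widely in level. The Gdf9 and Tle6 peaks were above the median open promoter, whose mean value was 5.15, and the Ooep peak was far below it. No zona gene and neither Bmp15, Oosp1, Nlrp5 nor Padi6 was among the open genes.

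**Figure D1:**
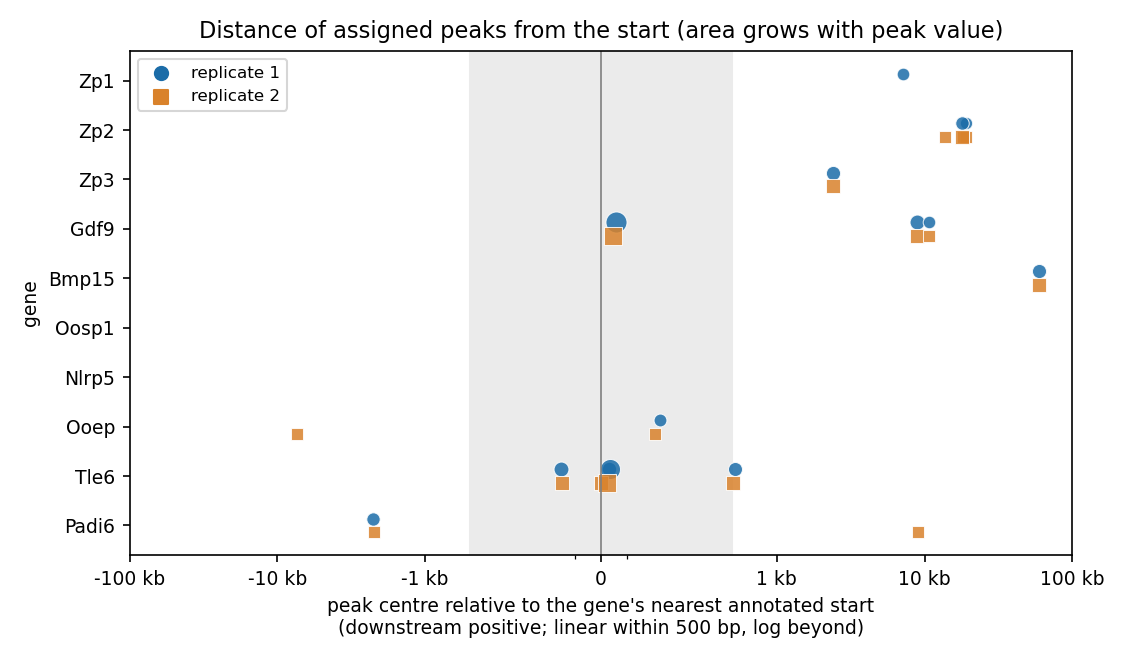
Each point is a peak assigned to one of the 10 genes, placed by the distance of its centre from the gene's nearest annotated start (linear within 500 bp, log beyond), with circles for replicate 1 and squares for replicate 2, and an area that grows with peak value. Gdf9, Ooep and Tle6 have peaks in the grey band of 500 bp to either side, Oosp1 and Nlrp5 have no peak, and the Bmp15 peak lies about 59.1 kb downstream in replicate 1.

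Zp1, Zp2 and Zp3 encode structural proteins of the zona. Zp3 (ENSMUSG00000004948.12, chr5:135980099-135988624, plus strand) had a single open site, in intron 1 of 7, shown above. Its value was 1.67 in replicate 1 and 1.37 in replicate 2, or 1.52 ± 0.207 (SD, n = 2). The centre lay 2451.5 bp downstream of the coding start in replicate 1 and 2481.5 bp in replicate 2. The lowest listed q-value there was 2.21e-10 in replicate 1 and 4.63e-08 in replicate 2. One footprint of 26 bases in replicate 1 and 28 bases in replicate 2 began at the same base in both animals.

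Zp2 (ENSMUSG00000030911.7, chr7:120126772-120145291, minus strand) had its open sites past the end of the gene. The stronger, at chr7:120124801-120125060, had 1.18 in replicate 1 and 1.23 in replicate 2, and the weaker, at chr7:120123821-120124040, had 0.593 in replicate 1 and 0.818 in replicate 2. The centre of the stronger was 20328.5 bp downstream of the nearest coding start in replicate 1 and 17976.5 bp from the nearest of all 5 annotated starts. These were 2 of the 3 shared sites of all 10 genes that were higher in replicate 2. In replicate 2 alone, further peaks of 0.334 downstream and 0.314 in the last intron were listed.

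Zp1 (ENSMUSG00000024734.8, chr19:10914287-10920632, minus strand) had 1 peak, in replicate 1 alone, at chr19:10909126-10909277 with a value of 0.742 and a lowest q-value of 0.00164. It lay 7.10 kb downstream of the nearer of the gene's 2 starts. In replicate 2 the peak nearest to Zp1 was 8197.5 bp away, with a value of 1.27, and belonged to Prpf19, a splicing factor gene.

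Gdf9 (ENSMUSG00000018238.6, chr11:53431023-53437904, plus strand) had the strongest site of the 10 genes. Its promoter peak, chr11:53430901-53431260 in replicate 1 and chr11:53430881-53431260 in replicate 2, had a value of 14.7 in replicate 1 and 8.57 in replicate 2. The mean of 11.6 ± 4.32 (SD, n = 2) was above that of 90.4% of open promoters. Its lowest q-value was 3.51e-120 in replicate 1 and 1.67e-83 in replicate 2, and each library listed 7 footprints in it, all of which overlapped one of the other library.

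This peak did not lie at the start of the Gdf9 protein-coding transcript. It covered the start of a noncoding transcript, at position 53431023. That start is 192 bp from the start of Uqcrq, a subunit gene of respiratory complex III that runs the other way on the minus strand, and the peak lay within 500 bp of both starts. The only coding transcript starts at position 53433299, which was 2.22 kb downstream of the peak centre in replicate 1. None of the 1001 bases around that coding start had a listed q-value in either library. Counted at starts of coding transcripts alone, 2 of the 10 genes were open, Ooep and Tle6, against 65.6% of all coding genes.

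Past the end of Gdf9, 2 weaker sites were open in both libraries. The one at chr11:53442001-53442260 had 2.29 in replicate 1 and 1.37 in replicate 2. The other, at chr11:53443951-53444180, had 0.697 in replicate 1 and 0.857 in replicate 2. Their centres lay 8.85 kb and 10.7 kb downstream of the coding start in replicate 1.

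Bmp15 (ENSMUSG00000023279.7, chrX:6314107-6320721, minus strand) had no peak in the gene or at its start. The only peak assigned to it was the distal site shown above, 59.1 kb downstream of the start in replicate 1 and 59.0 kb in replicate 2. The site had 1.62 in replicate 1 and 1.02 in replicate 2, or 1.32 ± 0.425 (SD, n = 2). Its footprint of 31 shared bases held a match to the core of the CTCF motif, which was searched on both strands. CTCF is a protein known for its part in genome folding. Of 82466 shared peaks, 10.2% held such a match in their central 150 bases.

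Oosp1 (ENSMUSG00000041857.10, chr19:11667460-11691150, minus strand) had no assigned peak. The nearest peak of any kind was 21.5 kb from its starts in each library, weak at 0.241 in replicate 1 and 0.190 in replicate 2, and nearest to Oosp3, a gene of the same family. Over the 6544 coding genes with no promoter peak in either library, the median distance to the nearest peak was 18.8 kb in replicate 1 and 18.1 kb in replicate 2. Nlrp5 (ENSMUSG00000015721.18, chr7:23385889-23441922, plus strand) had no assigned peak either and was farthest from open chromatin. Its nearest peak was 258 kb away in replicate 1, nearest to Vmn1r172, and 71.2 kb away in replicate 2, nearest to Nlrp4e.

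Tle6 (ENSMUSG00000034758.12, chr10:81590904-81601073, minus strand) had the most sites open in both libraries, 4, and its 4 peaks in replicate 2 were matched by Zp2. The site at its most upstream start, chr10:81600921-81601180 over both libraries, had 11.6 in replicate 1 and 5.67 in replicate 2. Its mean of 8.63 ± 4.18 (SD, n = 2) was above that of 76.2% of open promoters. The lowest q-value was 8.34e-65 in replicate 1 and 6.33e-45 in replicate 2, with 5 footprints in replicate 1 and 3 in replicate 2. The 3 inner sites lay in intron 4 of the coding transcript with the most exons, where 5 noncoding transcripts start. Their values were 2.26, 1.92 and 1.56 in replicate 1 and 0.995, 1.34 and 1.15 in replicate 2, in order from the start.

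Ooep (ENSMUSG00000032346.7, chr9:78376109-78378725, minus strand) had a weak promoter peak over its first coding exon. The peak had 0.834 in replicate 1 and 0.648 in replicate 2, and its mean of 0.741 ± 0.131 (SD, n = 2) was above that of 6.39% of open promoters. Its centre lay 224.5 bp downstream of the GENCODE start in replicate 1 and 204.5 bp in replicate 2. RefSeq places the start 137 bp farther in, and the centre was 87.5 bp past that start in replicate 1 and 67.5 bp in replicate 2. The lowest q-value was 4.39e-07 in replicate 1 and 3.90e-05 in replicate 2. A peak 7.36 kb upstream, with a value of 0.347, was listed in replicate 2 alone. The annotated start nearest to that peak was of a pseudogene, Gm8087, 3385 bp away.

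Padi6 (ENSMUSG00000040935.12, chr4:140727355-140742643, minus strand) had no open promoter but an open site upstream, shown above. The site had 1.101 in replicate 1 and 0.792 in replicate 2, or 0.946 ± 0.218 (SD, n = 2). Its centre was 2.24 kb from the start in replicate 1 and 2.22 kb in replicate 2, and a footprint of 27 shared bases lay in it. Replicate 2 alone listed a peak downstream of the gene, with a value of 0.491. The annotated start nearest to that peak was of a microRNA gene, Gm25951, 7007 bp away.

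Together the 10 genes had 14 peaks in replicate 1 and 17 in replicate 2, at 18 sites, of which 13 were open in both. The median gene of the 10 had 1 peak in replicate 1 and 1.5 in replicate 2, against a median of 3 over all coding genes in each library. Genes with no peak numbered 2 of 10 in replicate 1 and 3 of 10 in replicate 2, against 17.0% and 16.7% of all coding genes. Each of the 5 sites found in a single library was below that library's median peak value. The peaks held 40 footprints in replicate 1, of which 23 overlapped one in replicate 2, and 35 in replicate 2, of which 21 overlapped one in replicate 1. The share over all footprints is not given here, so whether these overlaps are usual cannot be read from them.

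**Figure D2:**
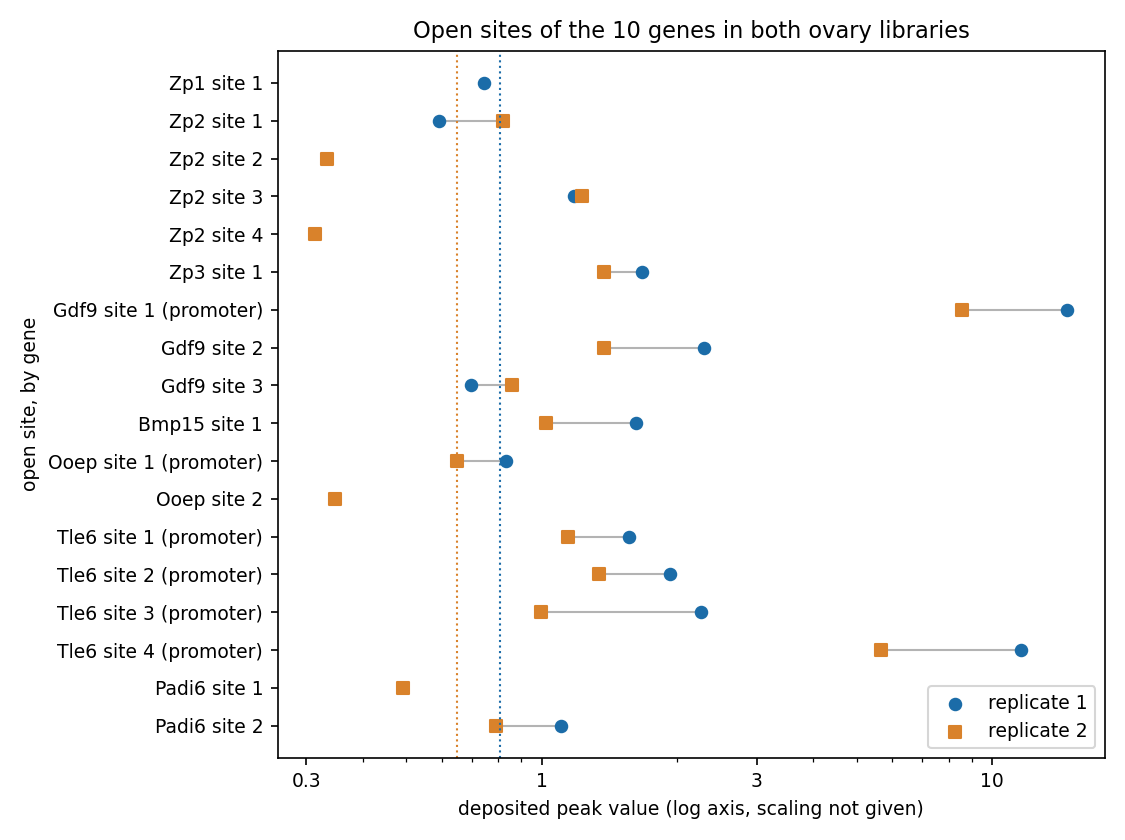
The deposited peak value (log axis, scaling not given) of each open site is drawn for replicate 1 (circles) and replicate 2 (squares), with a grey line joining both libraries at shared sites and dotted lines at each library's median peak value of 0.808 and 0.648. Sites are numbered by position along the chromosome, and the sites at the starts of Gdf9 (14.7 and 8.57) and Tle6 (11.6 and 5.67) stand above the other sites.

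Replicate 1 was higher at 10 of the 13 shared sites on the deposited scale. The median log2 ratio of replicate 1 over replicate 2 was 0.48, with a range of -0.46 to 1.18. Over 79447 shared peaks the median ratio was 0.41 (SD 0.49), and over 14631 open promoters it was 0.88 (SD 0.39). The sites at the most upstream starts of Gdf9 and Tle6 had ratios of 0.78 and 1.03, both within 1 SD of the median of open promoters. The inner Tle6 sites had 1.18, 0.52 and 0.45, in order from the start. Of these, the last was more than 1 SD below that median, as was the Ooep site at 0.36. Set against those medians, replicate 1 was higher at 5 of the 13 sites and the median was -0.13, so the direction turned with the scale. Each animal gave a single library, so its difference from the other was not tested.

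The 7 genes without a promoter peak were checked in the authors' list of bases with q-values, which reaches up to 0.04991 in replicate 1 and 0.04992 in replicate 2. At all of their annotated starts, none of the 1001 bases of the window was listed in either library. Among the 6544 coding genes without a promoter peak in either library, 174, or 2.66%, had at least 1 listed base in 1 or both libraries. The profile of listed bases shows signal at the starts of Gdf9, Tle6 and Ooep and inside or before Zp3 and Padi6, and none within its range at Zp1, Zp2, Bmp15, Oosp1 and Nlrp5.

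**Figure D3:**
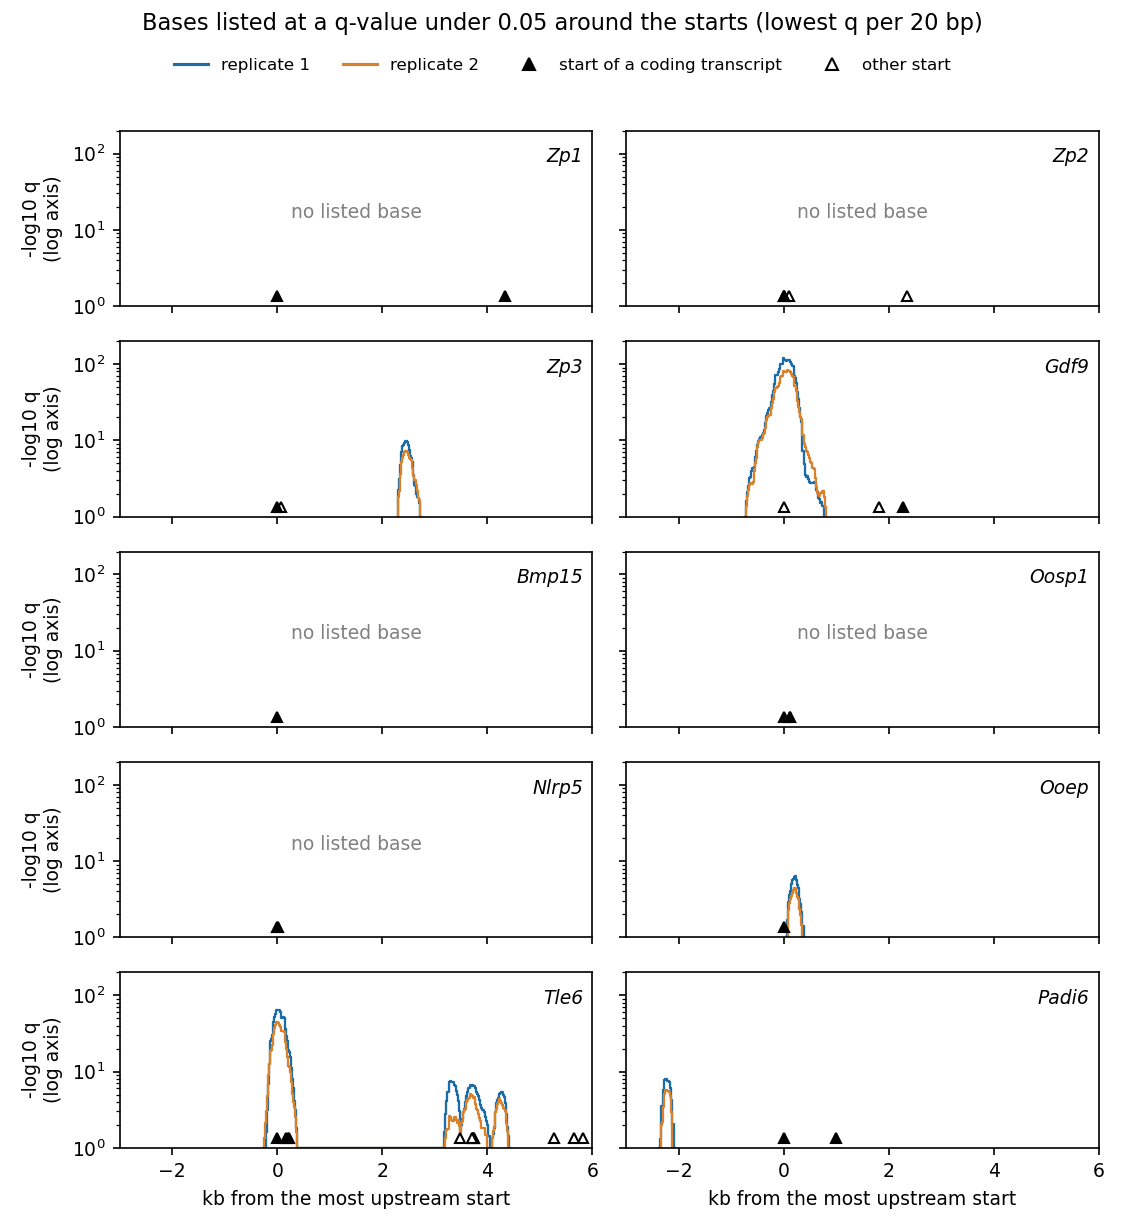
The lowest listed q-value per bin, as -log10 on a log axis, is drawn by distance in kb from each gene's most upstream start, with filled triangles at starts of coding transcripts and open triangles at other starts. Gdf9 is highest over its noncoding start and has nothing listed at its coding start, and 5 of the genes have no listed base in the range drawn.

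Promoters poor in CpG dinucleotides held peaks less often in this tissue, so the genes were also read against starts of like composition. The CpG ratio is the observed count of CpG over that expected from the base content of the 300 bases at the start. Of 7633 coding windows with a ratio under 0.35, 1292, or 16.9%, had a peak in both libraries, against 95.1% of windows above 0.6. Among the 7 oocyte genes in the promoter table, 5 of 9 windows were under 0.35, and 1 of these 5, the inner Tle6 window at 0.131, had a peak.

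The starts without a peak spanned a wide range of composition. Padi6 at 0.0856, Bmp15 at 0.155 and Oosp1 at 0.275 were low, and 6.26%, 11.8% and 26.5% of coding windows in the same bin of 0.1 had a peak. Zp3 at 0.439 and the first Nlrp5 start at 0.531 were richer in CpG and had no peak, although 62.1% and 82.1% of coding windows of like ratio did. Open windows at Ooep and at the first Tle6 start had ratios of 0.602 and 0.534, in bins where 90.3% and 82.1% had a peak. In these windows 100% of the 32-base words occurred once in the genome, except at Bmp15 (97.03%) and the inner Nlrp5 start (98.9%).

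**Figure D4:**
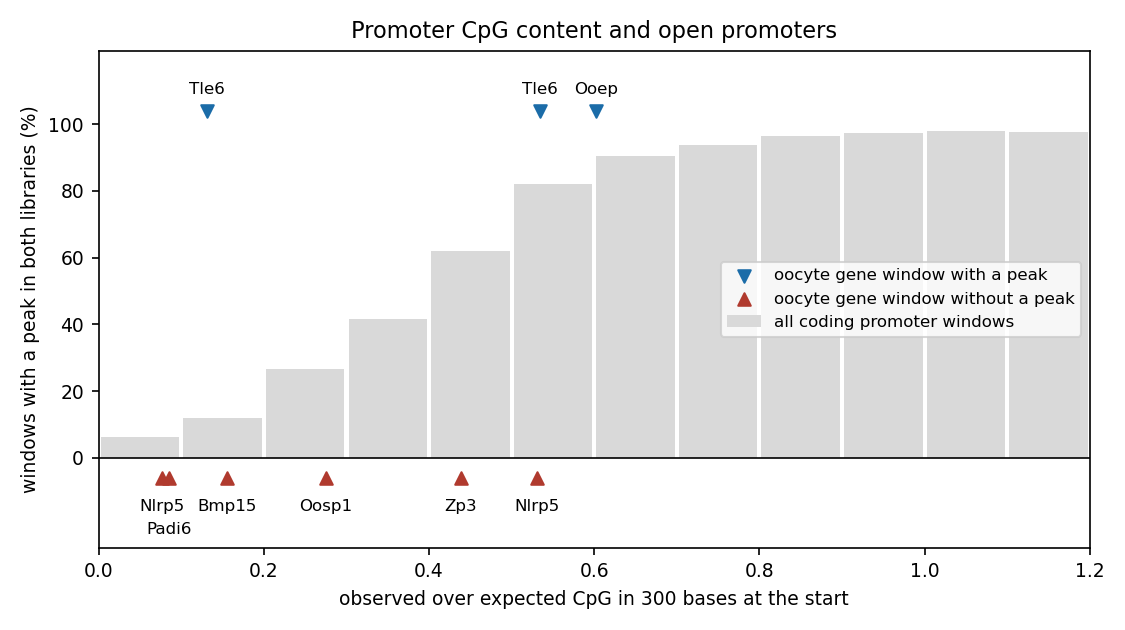
Grey bars give the percentage of all coding promoter windows with a peak in both libraries, by the CpG ratio of the 300 bases at the start. Triangles above 100% mark windows of the oocyte genes with a peak and triangles below 0 those without, and the first Nlrp5 window (0.531) and the first Tle6 window (0.534) share a bin and differ in state.

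Motifs were counted in the 9 promoter windows of the 7 genes in the table, beside their share of all 21255 coding windows and of the CpG-poor ones. E-boxes were in 9 of 9 windows, against 69.0% of all windows and 81.0% of CpG-poor windows. The E-box CACCTG was in 3 of 9 windows (19.7% of all and 22.05% of CpG-poor) and CAGCTG in 4 of 9 (15.6% and 17.9%). Each of these 2 is also counted under CANNTG. The homeodomain core TAATTA was in 2 of 9, at Bmp15 and Nlrp5, against 4.54% of all and 7.90% of CpG-poor windows. TAATTG was in 2 of 9, at Ooep and Padi6, against 6.83% and 10.5%. It began 195 bases before the RefSeq start of Ooep but 8 bases past that of Padi6, outside the upstream bases shown. Within Bmp15, TAATTA began 225 bases before the start, and within Nlrp5 189 bases before it. The TATA box sequence TATAAA, counted on either strand, was in 2 of 9 (12.6% and 22.6%). All its matches read TTTATA on the gene's own strand. They began 155 bases before the Bmp15 start, and 134 and 56 bases before the inner Nlrp5 start. The NR5A motif TGACCTTG was in none (1.34% and 2.21%). The SP/KLF box GGGCGG was in 4 of 9 (46.2% and 10.5%).

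CACGTG was in 2 of the 9 windows, at Zp3 and the first Tle6 start, in 7.84% of all windows and in 3.10% of CpG-poor ones. In Zp3 it began 181 bases before the RefSeq start, where neither library listed a peak or a base. In Tle6 it occurred at 183 and 119 bases before the RefSeq start, each inside a footprint that both libraries listed. A looser form of the CTCF core, which every match to the core also meets, was counted as well. It was in the central 150 bases of 4 of the 8 shared sites scanned and of 25.5% of all shared peaks. The 4 were at Zp3, Bmp15, Padi6 and the start of Tle6. Shared sites of Zp2 and Gdf9 were left out of the scan. CACGTG and both forms of the CTCF core were chosen after the footprint sequences had been seen, so their counts are a description only.

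Genes that act with the 10 were also counted, beside the 66.7% of all coding genes with a promoter peak in both libraries. Genes for the receptors, the convertase and the SMAD proteins of GDF9 and BMP15 signalling were open at 10 of 10. The highest were Tgfbr1, a type I receptor, with 22.01 in replicate 1 and 7.36 in replicate 2, and Smad4, the common mediator SMAD, with 16.3 in replicate 1 and 6.79 in replicate 2. Among 5 genes of the egg surface and fertilization, 2 were open, Cd9 (mean 3.35 ± 1.84, SD, n = 2) and Astl (1.07 ± 0.343), which encode a tetraspanin and an egg protease. Izumo1r, the egg receptor for sperm IZUMO1, had no promoter peak.

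Of 8 further genes of the subcortical complex and the NLRP family, only Zbed3 was open, with 3.52 in replicate 1 and 2.25 in replicate 2. Khdc3, a complex member, had no promoter peak. This count and those below stand beside the same 66.7% of all coding genes. Among 12 other maternal effect genes, 5 were open in both libraries and 2 in a single library. The highest were Tet3, a methylcytosine dioxygenase (10.4 in replicate 1 and 3.89 in replicate 2), and Kpna7, an importin (10.1 in replicate 1 and 3.47 in replicate 2), while Btg4, which acts in maternal mRNA decay, had none. Among 6 oocyte transcription factors, 2 were open in both and 2 in a single library. Taf4b had 16.4 in replicate 1 and 7.83 in replicate 2, Lhx8 had 1.02 in replicate 1 and 0.936 in replicate 2, and Figla had no promoter peak.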

How the data were processed

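DNase-seq libraries of 2 ovaries were used. The authors deposited peaks per library, each with a signal value, in a longer and a shorter list. The longer was used. All signal values were whole multiples of 1 step (0.00651 in replicate 1, 0.00654 in replicate 2; tolerance 0.05 of a step). That 1 step is 1 read was not shown, so no counting interval is given. The authors also deposited q-values per base and footprints whose score is 0.01 in every line, so only footprint positions were used. Coordinates are on mm10, which is GRCm38, per the labels. Aligner, callers and thresholds were not given in the sources used here.

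Starts of protein-coding genes came from GENCODE M21, without the mitochondrial genome, and promoter windows from RefSeq. Peaks were assigned in Python 3.11.15 with numpy 2.4.6, and peaks of both libraries sharing at least 1 base formed 1 site. Where several peaks met a promoter, the highest value was taken. The labels give both libraries the same donor entry and number the females differently, and each library was taken as 1 animal. SDs describe 2 libraries. No test was made, since there is 1 group. As a check of the code alone, simulated peaks over 21938 genes were placed so that the rule fixed the outcome. Of those planted at promoters 200 of 200 were found, and 0 of 200 planted outside the window were called. Sensitivity in these libraries was not tested. All 10 genes are named. From each related list came the 2 genes of highest mean promoter value and the first in alphabetical order without a promoter peak. Coding genes nearest to a gene's start or peak were also named. Ddx4, Dazl and Nobox were named from the marker list. The genes, lists and 8 of 12 motifs were chosen with earlier results of these data known.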

Additional observations from a re-analysis of the deposited data

How the results depend on the processing

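The count of 3 genes with an open promoter was also 3 with the shorter peak list, with windows of 250 or 1000 bp, with the most upstream start alone and with peak centres inside the window. It was 2 with starts of coding transcripts alone (without Gdf9) and 2 with peaks above each library's median (without Ooep). Leaving out replicate 1 or replicate 2 gave 3 each time. The share of all coding genes, 66.7% in the main setting, moved as well. Over these settings it ran from 61.2% (peaks above each library's median) to 68.9% (without replicate 2). Assigned peaks, 15.5 per library on average, numbered 12 with the shorter list and 14 to 17 in the single libraries. They numbered 14.5 within 50 kb of the start, a limit that leaves out the Bmp15 site. With starts of all annotated genes they also numbered 14.5, without the Ooep upstream peak and the Padi6 downstream peak. Footprints, 37.5 on average, numbered 31.5 with the shorter list and 35 to 40 in the single libraries. Genes with a listed base around any start were 3 at every window, at q-values up to 0.01 and 0.001, and in each library alone. Over all coding genes, 67.4% had a listed base in both libraries within 500 bp of a start. The share of CpG-poor windows with a peak, 16.9%, was 25.4% with a limit of 0.5, and 19.7% to 19.8% in single libraries. The median log2 ratio of the 13 shared sites, 0.48, was 0.18 after division by each library's median shared peak. Set against the median ratio of open promoters, or of shared peaks for other sites, it was -0.13, with 5 of 13 sites higher in replicate 1, a scale chosen after seeing the data. So its sign changes with the scale. No paired analysis was possible because there is a single group. Sites below the authors' calling limit are not detectable here.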

Other observations

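The genes lay in surroundings of very different openness. Within 100 kb of Nlrp5 there were 0 peaks in replicate 1 and 1 in replicate 2, and within 100 kb of Bmp15 there were 4 in each library, against medians of 13 and 15 over all coding genes. Oosp1 had 6 peaks in replicate 1 and 7 in replicate 2. Tle6 had 36 and 31, Padi6 had 35 and 34, Gdf9 had 32 and 30, and Zp3 had 30 and 23, in replicate 1 and replicate 2. Zp1 had 25 in each library, Ooep 15 and 13, and Zp2 9 and 12.

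Neighbouring coding genes within 200 kb were also counted, beside the 66.7% of all coding genes with a promoter peak in both libraries. Around Nlrp5, 0 of 7 had an open promoter, and these were vomeronasal receptor genes, Nlrp4e and Gm6902. Around Oosp1, 3 of 15 were open (Mrpl16, Ms4a4d and Stx3), and those without a promoter peak included Oosp2, Oosp3 and 4 olfactory receptor genes. Around Padi6, which had no open promoter, 3 of 6 neighbours were open, among them Padi2, while Padi3 and Padi4 were not. Around Zp3, also without an open promoter, 10 of 12 were open. Around Gdf9 and Tle6, 11 of 13 and 10 of 14 neighbours were open. Around Zp1, 5 of 13 were open, around Ooep 6 of 13, around Zp2 3 of 6 and around Bmp15 1 of 2. These neighbours were named after their values had been seen.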
